A study of Danio rerio with 6 samples.

Results

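V(D)J recombination genes and DNA end-joining genes were followed in whole thymi of zebrafish with and without functional *foxn1*, the transcription factor gene that governs differentiation of the thymic epithelium. The genes were chosen by name, and each symbol matched a single Ensembl identifier, so that 10 of the 32520 identifiers in the count tables were members. They fall into 3 lymphoid genes (*rag1*, *rag2* and *dntt*) and 7 general end-joining genes (*prkdc*, *dclre1c*, *lig4*, *xrcc4*, *xrcc5*, *xrcc6* and *nhej1*). All 10 passed the filter on low counts.

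Thymi of *foxn1*+/+ fish (wild types) were compared with thymi of *foxn1*-/- fish (mutants), whose line carries an internal deletion of the gene. The fish were adults of 3 months of age, and for thymus RNA used in RT-PCR the methods place both genotypes on the *ikzf1*:EGFP background, a fluorescent reporter of lymphoid cells. Each library was made from RNA pooled from 3 animals and there were 3 libraries per genotype, so that the spread between libraries is that between pools. Nothing was sorted, and in such bulk samples fewer cells of a type and less RNA per cell cannot be told apart.

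In developing lymphocytes, the RAG1 and RAG2 proteins together cut DNA at recombination signal sequences beside the V, D and J segments of antigen receptor genes. The hairpin ends left by the cut are held by the Ku heterodimer (encoded by *xrcc6* and *xrcc5*), opened by the Artemis nuclease (*dclre1c*) together with the DNA-dependent protein kinase (*prkdc*), and sealed by DNA ligase IV (*lig4*) with its partners XRCC4 and XLF (*nhej1*). Terminal deoxynucleotidyl transferase (*dntt*) adds nucleotides to the open ends before they are joined. The RAG proteins and the transferase are made almost solely in lymphoid cells, whereas the joining enzymes repair double-strand breaks in all cells.

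Libraries held between 31989159 and 42198532 counts, and 23805 genes were tested. Replicates were separate libraries, since the chi-square per degree of freedom between them was 33.2 to 105, where sampling alone gives 1. The targeted gene *foxn1* had 495, 375 and 349 counts in wild types against 114, 129 and 66 in mutants. The tissue label was borne out in wild types by thymocyte markers, which summed to between 7222 and 9235 CPM (counts put on one library scale by TMM normalization), and by the thymoproteasome gene *psmb11a* (matched through the symbol PSMB11), with 2509, 1597 and 1636 counts. In mutants, *psmb11a* had 0 counts in each library. Of 18 thymocyte markers, 17 fell, where 35.9% of all genes tested were called lower, and none was at 0 in all libraries. Markers of contractile muscle summed to between 7197 and 17098 CPM in wild types and between 100296 and 137898 CPM in mutants.

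All 10 members were lower in mutants at an adjusted p under 0.05, and none was higher. This count is read against a background in which 35.9% of the genes tested were called lower and 36.2% higher (quasi-likelihood test of edgeR, p-values adjusted over all genes tested). The mutant libraries all lay below the wild-type libraries for all 10 members, as they did for 39.3% of the genes tested. What set the members apart from each other was the size of the fall, which ran from 41.7-fold for *dntt* to 1.42-fold for *nhej1*.

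*rag1* (ENSDARG00000052122), which encodes the catalytic subunit of the recombinase, was at 5239, 4173 and 6038 CPM in wild types and at 324, 315 and 90.3 CPM in mutants. The third mutant pool thus lay well below the other mutants, and all mutants lay far below the wild types. In the raw counts, *rag1* had 252186, 157100 and 226328 counts in wild types against 11126, 11697 and 3375 in mutants. It took 0.605%, 0.491% and 0.676% of all counts of the wild-type libraries. The log2 fold change came to -4.40 (standard error 0.523, adjusted p = 0.000334, edgeR), a 21.2-fold fall, and 2.01% of the genes tested had a lower value.

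*rag2* (ENSDARG00000052121), the gene of the partner subunit, was at 280, 210 and 233 CPM in wild types and at 12.5, 13.7 and 4.89 CPM in mutants. As for *rag1*, the third pool was the lowest of the mutants. The log2 fold change came to -4.54 (standard error 0.408, adjusted p = 0.000113, edgeR), a 23.3-fold fall.

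*dntt* (ENSDARG00000104792), the gene of the nucleotide-adding transferase, had 396, 301 and 313 counts in wild types against 8, 7 and 6 in mutants. The mutant counts lie close to the floor of 3 counts set here for detection, so the fold is less precise than the spread between libraries shows. In normalized units, *dntt* fell from 8.19 ± 0.180 to 0.194 ± 0.0367 CPM (SD, n = 3 each). This was the largest fall of any member (log2 fold change -5.38, standard error 0.217, adjusted p = 1.8e-05, edgeR). The third mutant pool held 6 *dntt* counts against 8 and 7 in the others, and so did not stand apart for this gene.

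**Figure D1:**
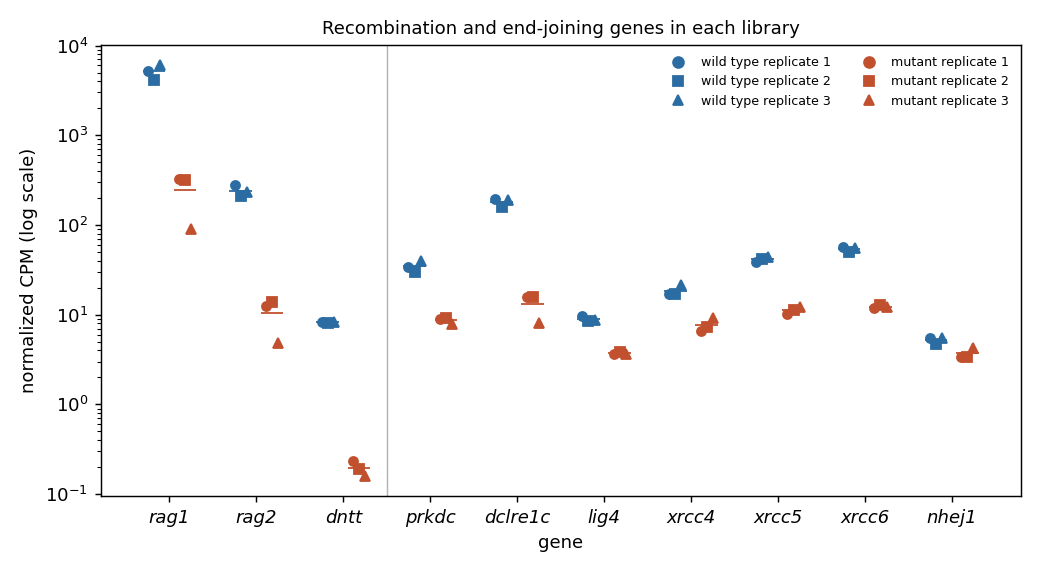
Normalized CPM (log scale) of the 10 members in each library; points are libraries, with one marker shape per replicate, horizontal lines are group means, and the vertical line parts lymphoid from end-joining genes. For each gene all mutants lie below all wild types, as for 39.3% of all genes tested. Mutant replicate 3 lies furthest below the other mutants for *rag1* (90.3 CPM), *rag2* (4.89 CPM) and *dclre1c* (8.02 CPM), and by less for *dntt*, *prkdc* and *lig4*.

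Among the end-joining genes, *dclre1c* (ENSDARG00000045704), which encodes the hairpin-opening nuclease Artemis, fell most. It was at 197, 160 and 189 CPM in wild types and at 15.6, 15.9 and 8.02 CPM in mutants, the third pool again being lowest. Its log2 fold change of -3.79 (standard error 0.287, adjusted p = 6.5e-05, edgeR), a 13.8-fold fall, lay nearer to those of the *rag* genes than to that of any other end-joining gene.

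The genes of the proteins that first bind the broken ends fell by a similar amount. *xrcc6* (ENSDARG00000071551), the gene of Ku70, had 56.3, 50.01 and 55.4 CPM in wild types and 11.8, 12.8 and 12.2 CPM in mutants. Its mutant pools were closely alike, without the drop in the third pool, and it fell 4.39-fold (log2 fold change -2.13, standard error 0.105, adjusted p = 2.3e-05, edgeR). *xrcc5* (ENSDARG00000099298), the gene of Ku80, had 39.0, 42.2 and 44.4 CPM in wild types and 10.1, 11.3 and 12.1 CPM in mutants. Here the third mutant pool was the highest of the mutants, and the fall was 3.74-fold (log2 fold change -1.90, standard error 0.117, adjusted p = 3.3e-05, edgeR). *prkdc* (ENSDARG00000075083), the gene of the kinase recruited by Ku, had 34.2, 29.9 and 39.9 CPM in wild types and 9.06, 9.07 and 7.97 CPM in mutants. The fall was 3.98-fold (log2 fold change -1.99, standard error 0.143, adjusted p = 4.9e-05, edgeR).

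The genes of the ligation complex fell least. *lig4* (ENSDARG00000060620), the ligase gene, had 9.60, 8.58 and 8.78 CPM in wild types and 3.67, 3.88 and 3.66 CPM in mutants (log2 fold change -1.26, standard error 0.138, adjusted p = 0.000208, edgeR). *xrcc4* (ENSDARG00000010732), the gene of the scaffold that binds the ligase, had 16.95, 17.00 and 21.5 CPM in wild types and 6.50, 7.38 and 9.23 CPM in mutants (log2 fold change -1.26, standard error 0.177, adjusted p = 0.000637, edgeR). For both genes, the mutant level as a share of the wild-type mean was between 40.8% and 43.1% for *lig4* and between 35.1% and 49.9% for *xrcc4*.

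*nhej1* (ENSDARG00000058893), the gene of the XLF factor that bridges the ends with XRCC4, had 268, 179 and 205 counts in wild types against 116, 127 and 161 in mutants. In normalized units these were 5.57, 4.75 and 5.47 CPM against 3.38, 3.42 and 4.31 CPM, so that the groups did not overlap but came close. Its log2 fold change of -0.51 (standard error 0.177, adjusted p = 0.0340, edgeR) lay within the interquartile range of all genes tested, which ran from -0.93 to 1.44. The call was not stable. It was lost without wild-type replicate 1 or 3, without mutant replicate 1 or 2, with voom and treat, with no filter and with the replicate number as a block (adjusted p between 0.0513 and 0.132 in these 7 of 13 alternatives).

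**Figure D2:**
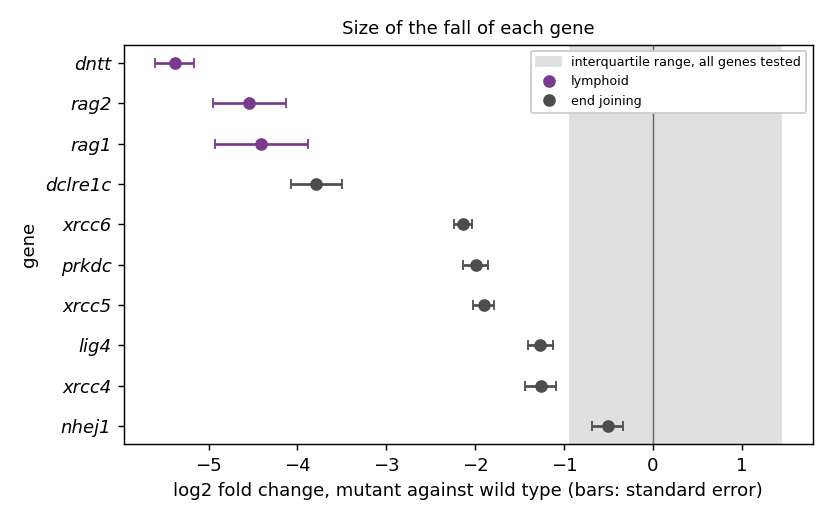
Log2 fold change of each member between mutants and wild types (points, with bars for the standard error), with lymphoid genes in purple, end-joining genes in grey and the interquartile range of all genes tested shaded. Values run from -5.38 for *dntt* to -0.51 for *nhej1*, the one member inside the shaded range.

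Set against each other, the lymphoid genes had a mean log2 fold change of -4.78 and the end-joining genes one of -1.84, or -1.51 without *dclre1c*. The end-joining genes were lower too, with a median of -1.90 where all genes tested had a median of 0.02. Within libraries, the mean log2 CPM of the lymphoid genes exceeded that of the end-joining genes by 3.04, 2.91 and 2.95 in wild types. The difference was 0.41, 0.26 and -0.83 in mutants, so that it shrank in every mutant pool, and most in the third. As these genes were chosen by name, no p was computed for this difference. The gap between the mean log2 fold changes of the lymphoid and end-joining genes was -2.94. This gap ranged from -3.14 to -2.66 when each library was left out in turn.

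Ratios of counts of genes in the same library do not depend on how libraries are scaled. Since transcript lengths were not used, only the change of a ratio between genotypes is read, not its level. Of 8 ratios compared, 5 did not overlap between genotypes. Each of these 5 had p = 0.1 in an exact two-sided permutation test (adjusted p = 0.16 over the 8 ratios). The smallest p that 3 libraries against 3 can give is 0.1. The share of other gene pairs that would not overlap was not computed, so this count is not read as particular to these genes. Over all genes tested, 35.9% were called lower and 36.2% higher.

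The log2 ratio of *rag2* to *rag1*, the genes of both recombinase subunits, was -4.23, -4.31 and -4.69 in wild types and -4.70, -4.52 and -4.20 in mutants. These ranges overlap almost fully, and the means differed by -0.06, less than the SD of 0.248 in wild types and 0.251 in mutants (exact permutation test, p = 0.9). The *rag* genes are neighbours on chromosome 25 of the RefSeq reference and no annotated protein-coding gene lies between them. Whether reads were counted by strand is not stated, so reads running from one gene into the other could not be told apart.

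The log2 ratio of *dntt* to *rag1* was -9.31, -9.03 and -9.50 in wild types and -10.44, -10.71 and -9.14 in mutants. The first and second mutant pools lay below all wild types and the third among them. The means differed by -0.81 (exact permutation test, p = 0.3), a difference that ranged from -1.29 without mutant replicate 3 to -0.51 without mutant replicate 2.

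For *dclre1c*, the log2 ratio to *rag1* rose from -4.81 ± 0.161 to -4.06 ± 0.491 (SD, n = 3 each), while that to *prkdc* dropped from 2.40 ± 0.141 to 0.54 ± 0.456 (SD, n = 3 each). Neither ratio overlapped between genotypes. The difference in the ratio to *rag1*, 0.75, was 0.47 without mutant replicate 3. The nuclease gene therefore fell by less than *rag1* in each mutant pool, and by more than the gene of its partner kinase.

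Among genes whose proteins bind each other, the log2 ratio of *xrcc4* to *lig4* was 1.03 ± 0.240 in wild types against 1.03 ± 0.269 in mutants (SD, n = 3 each; exact permutation test, p = 1). The log2 ratio of *nhej1* to *xrcc4* was -1.81 ± 0.187 and -1.05 ± 0.0934 (SD, n = 3 each), without overlap. The ratio of *xrcc5* to *xrcc6* differed by 0.23 on the log2 scale, with means of -0.37 in wild types and -0.14 in mutants, also without overlap; without wild-type replicate 1, this difference was 0.14.

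**Figure D3:**
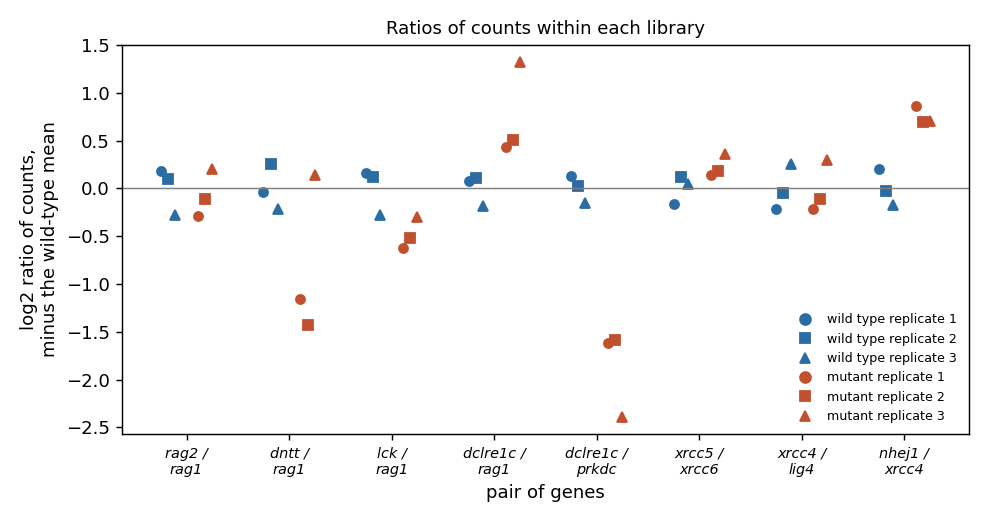
Log2 ratios of the counts of gene pairs within each library, each shown minus its wild-type mean, with one marker shape per replicate. Mutants overlap wild types for *rag2* to *rag1*, *dntt* to *rag1* and *xrcc4* to *lig4*, and lie below all wild types for *dclre1c* to *prkdc* (difference -1.86).

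The fall of the *rag* genes went with that of thymocyte markers. The 18 thymocyte markers tested had a median log2 fold change of -4.36. Their summed level in the mutant pools was 5.72%, 6.41% and 2.82% of the wild-type mean. *rag1* was at 6.30%, 6.11% and 1.75%, and *rag2* at 5.18%, 5.70% and 2.03%. *dntt*, at 2.85%, 2.30% and 1.96%, was below the summed markers in each mutant pool. Taken singly, the markers *themis* (-5.49) and *zap70* (-5.39) fell as far on the log2 scale as *dntt* (-5.38), and the others by less. The third mutant pool was thus the lowest for the summed markers as well as for the *rag* genes. It also held the highest level of erythrocyte markers, 2527 CPM against 944 and 1021 CPM in the other mutants. The part of cell composition in the fall of the members was not tested.

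Single T lineage genes fell by more or by less than *rag1*. Among the called markers that fell by less were *tox* (-2.69), *ptprc* (-3.27) and *cd4-1* (-4.29), and those named next fell by more. *lck*, the gene of a kinase of T cell receptor signalling, fell by 4.93 on the log2 scale (adjusted p = 0.000122, edgeR). Its log2 ratio to *rag1* was -2.46 ± 0.245 in wild types against -2.94 ± 0.168 in mutants (SD, n = 3 each), without overlap. *themis*, a gene of thymocyte selection, fell most among the markers (-5.49; adjusted p = 4.6e-05, edgeR), and *bcl11ba*, a transcription factor gene of T lineage commitment and the most abundant of them, fell by 4.63 (adjusted p = 2.3e-05, edgeR). The 1 marker that did not pass the test was *cd247l*, with 212, 186 and 200 counts in wild types against 150, 203 and 108 in mutants.

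The genes most like *rag1* across the 6 libraries were found by the root mean square difference of log2 CPM from the wild-type mean, among 8920 genes with a symbol and at least 10 CPM in wild types. They were *cd8b*, a coreceptor gene of T cells (difference 0.0935), *GBGT1* (0.128), the coreceptor gene *cd4-1* (0.151), *trbc1*, listed for the constant region of the T cell receptor beta chain (0.155), and *mxd* (0.165). All 5 were lowest in mutant replicate 3, as *rag1* was, which follows from how they were chosen, since the measure covers that library. *cd8b*, for example, was at 888, 784 and 916 CPM in wild types and at 52.4, 52.9 and 15.5 CPM in mutants. By the same measure, *rag2* differed from *rag1* by 0.208, *dclre1c* by 0.612 and *dntt* by 0.723, whereas the other end-joining genes differed by between 1.85 and 2.98. A gene that fell much less than *rag1* differs more by construction, so these values largely restate the fold changes.

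B cells also use the recombinase, and their markers moved the other way. All 8 B cell markers tested rose (median log2 fold change 1.53), where 36.2% of all genes tested were called higher. Their summed level was between 23.4 and 24.9 CPM in wild types and between 82.7 and 126 CPM in mutants. The largest rise was that of *ighm*, the heavy chain gene of immunoglobulin M (262, 134 and 168 counts in wild types, 1387, 1721 and 889 in mutants, a rise of 3.03 on the log2 scale; adjusted p = 0.000142, edgeR). The most abundant was an identifier reached through the symbol EBF1, shared by 2 identifiers, which rose by 2.44 (adjusted p = 2.4e-05, edgeR). It was at 37.6, 37.1 and 33.8 CPM in mutants, a sizeable part of the summed level.

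Proliferation markers, which cycling thymocytes express, all fell (16 of 16, median -3.02), where 35.9% of all genes tested were called lower. The largest fall was that of the cyclin gene *ccnb1* (-4.32; adjusted p = 2.7e-05, edgeR), and the most abundant gene, the replication clamp *pcna*, fell by 2.44 on the log2 scale (adjusted p = 2.3e-05, edgeR). Their summed level in mutants was 15.3%, 12.6% and 15.0% of the wild-type mean. The end-joining members summed to 17.4%, 18.5% and 16.6%, but *dclre1c*, at 182 CPM in wild types, made up most of the wild-type sum. In mutants it was at 13.2 CPM, a smaller part of sums between 57.4 and 63.8 CPM. Taken singly, the other end-joining members kept between 21.9% (*xrcc6*, mutant replicate 1) and 81.8% (*nhej1*, mutant replicate 3), and their list had a median of -1.90 with *dclre1c* included. In neither list was the third mutant pool set apart from the other mutants by as much as it was for *rag1*.

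Beyond the members, 20 further genes of end joining and break sensing were tested (median log2 fold change -0.92). Of these, 16 fell, none rose and 4 did not pass the test. Over all genes tested, 35.9% were called lower and 36.2% higher. The largest fall was that of *polm*, the gene of DNA polymerase mu and a relative of *dntt*. It had 13914, 8551 and 9060 counts in wild types against 523, 503 and 147 in mutants, with the third pool lowest as for the *rag* genes (-4.53; adjusted p = 0.000260, edgeR). *h2ax*, the gene of the histone variant that is phosphorylated at breaks, was the most abundant. It had 64422, 39235 and 35674 counts in wild types against 2098, 2914 and 1123 in mutants (-4.30; adjusted p = 0.000112, edgeR); histone genes are alike in sequence, so this value is uncertain where reads were shared. Apart from these, called genes had log2 fold changes between -1.71 for *tdp2b* (matched through the symbol TDP2) and -0.59 for *shld2*. The break-sensing kinase gene *atm* fell by 1.45 (adjusted p = 0.000582, edgeR) and *rad50*, of the complex that tethers ends, by 1.46 (adjusted p = 9.8e-05, edgeR). *poll*, the gene of DNA polymerase lambda, had a log2 fold change of -0.44 and *paxx*, an accessory factor of Ku, one of -0.36 (adjusted p = 0.0527 and 0.148, edgeR). The values of *rnf168* and *aplf* were -0.14 and 0.05 (adjusted p = 0.282 and 0.820, edgeR).

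Alternative end joining, which anneals short stretches of homology, was lower for 8 of 8 genes (median -1.38). *fen1*, a flap nuclease gene, was both the most abundant and the one with the largest fall (-2.20; adjusted p = 2.3e-05, edgeR), while the polymerase theta gene *polq* fell by 1.31 (adjusted p = 0.000176, edgeR). In homologous recombination, which copies a sister chromatid in dividing cells, 14 of 14 genes fell (median -1.82). Both counts are read against the 35.9% of all genes tested that were called lower. The largest fall was that of *rad52*, which had 469, 441 and 379 counts in wild types against 28, 37 and 44 in mutants (-3.39; adjusted p = 3.1e-05, edgeR). The end-joining members, with a median of -1.90, thus lay close to the homologous recombination genes. They lay as close to the genes for cofactors or turnover of RAG proteins (-1.92). These differences were not tested.

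**Figure D4:**
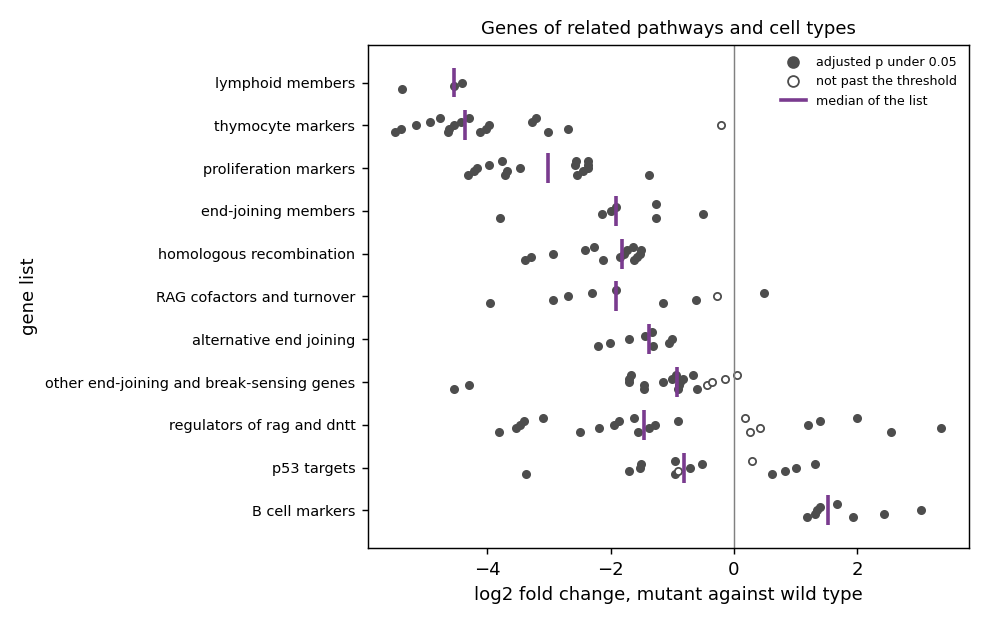
Log2 fold changes between mutants and wild types of the members and of related gene lists; each point is a gene, filled where the adjusted p was under 0.05, and purple bars are medians. The medians of the lymphoid members (-4.54) and thymocyte markers (-4.36) lie furthest to the left, and B cell markers (1.53) lie to the right. Those of end-joining members (-1.90), RAG cofactors and turnover (-1.92) and homologous recombination (-1.82) lie close together.

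Genes known in mammals for cofactors or turnover of RAG proteins were mostly lower as well (median -1.92). Of 9 genes, 7 fell and 1 rose, against 35.9% lower and 36.2% higher over all genes tested. The most abundant was the gene reached through the symbol HMGB2, which encodes a DNA-bending protein that aids RAG cleavage, with 1661 ± 88.1 CPM in wild types against 257 ± 15.4 CPM in mutants (SD, n = 3 each; -2.69, adjusted p = 2.2e-05, edgeR). The related *hmgb1a* had a log2 fold change of -0.27 (adjusted p = 0.0863, edgeR), and *hmgb1b* fell by 1.15 (adjusted p = 0.000292, edgeR). The importin genes *kpna2* and *kpna1* had log2 fold changes of -3.95 and 0.48 (adjusted p = 1.5e-05 and 0.0259, edgeR). The call of *kpna1* was lost in 8 of 13 alternatives, and it is that of the 1 gene that rose. *skp2*, part of the ubiquitin ligase that removes RAG2 in dividing cells, fell by 2.30 (adjusted p = 2.2e-05, edgeR).

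Of 22 transcription factor genes known in mammals for the *rag* or *dntt* loci, 14 fell, 5 rose and 3 did not pass the test (median -1.46). The shares over all genes tested were 35.9% called lower and 36.2% called higher. *ikzf1*, the Ikaros gene, was both the most abundant and the one that fell most, from 598 ± 91.7 to 42.9 ± 14.0 CPM (SD, n = 3 each; -3.80, adjusted p = 6.2e-05, edgeR). The *ets1* gene fell by 3.54 on the log2 scale and *myb* fell by 3.40 (adjusted p = 3.1e-05 and 5.9e-05, edgeR), each with the lowest level in mutant replicate 3. The E protein genes *tcf3a* and *tcf3b* fell by 2.50 and 1.94 (adjusted p = 2.3e-05 and 3.9e-05, edgeR). A further E protein gene, *tcf12*, did not fall (log2 fold change 0.26, adjusted p = 0.104, edgeR). *gata3* fell by 0.90 (adjusted p = 0.0128, edgeR). The genes that rose were *bcl11ab* (3.36), *lef1* (2.54), the gene reached through BCL11A (2.00), *satb1a* (1.40) and the more abundant of 2 identifiers under FOXO1. *bcl11ab* had no more than 4 counts in any wild type and between 23 and 29 in mutants, so that its fold rests on few counts (adjusted p = 0.000500, edgeR). Counts were also low for *satb1a* (23, 18 and 26 in wild types, 52, 56 and 50 in mutants). Those of *lef1* were 21, 19 and 24 in wild types and 77, 80 and 180 in mutants. By contrast, *satb1b*, reached through SATB1 and far more abundant than *satb1a*, fell. It was at 572 ± 81.3 CPM in wild types and 51.4 ± 19.5 CPM in mutants (SD, n = 3 each, adjusted p = 0.000134, edgeR).

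Genes induced by p53 after DNA damage did not move together. Of 14 identifiers tested for 12 genes, 8 fell, 4 rose and 2 did not pass the test (median -0.81). These counts stand beside 35.9% of all genes tested called lower and 36.2% called higher. They include 2 identifiers under TP53I11, at -1.53 and 0.84 (adjusted p = 0.000269 and 0.0364, edgeR), the latter with overlap between genotypes. Those under GADD45A were at 0.62 and 0.29 (adjusted p = 0.00511 and 0.235, edgeR). *rrm2b*, a ribonucleotide reductase gene, fell most (-3.37; adjusted p = 2.7e-05, edgeR), *phlda3* rose most (1.31; adjusted p = 0.00227, edgeR), and *ccng1*, the most abundant, rose from 317 ± 53.4 to 641 ± 40.3 CPM (SD, n = 3 each; 1.02, adjusted p = 0.000802, edgeR). Without wild-type replicate 1, 5 of these genes were called lower, and with library size alone 2 were called higher.

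The genes beside the members were compared as well. *iftap*, next to *rag2*, had 2009, 1021 and 1433 counts in wild types against 158, 186 and 104 in mutants, a fall of 3.11 on the log2 scale (adjusted p = 1.0e-04, edgeR). *accs*, next to *rag1*, fell by 1.89 (adjusted p = 3.7e-05, edgeR). Further out, *furinb* was reached through FURIN, whose 2 identifiers had log2 fold changes of -0.92 and -0.04 (adjusted p = 0.000613 and 0.771, edgeR), *lrrc4ca* through LRRC4C, whose 2 identifiers rose by 1.67 and 2.09 (adjusted p = 0.0222 and 0.00106, edgeR), and *man2a2* rose by 0.37 (adjusted p = 0.0206, edgeR). Over all genes tested, 35.9% were called lower and 36.2% higher. Beside *dntt*, the adaptor gene *blnk* rose by 1.19 and the cyclin gene *ccnj* fell by 1.34 (adjusted p = 0.00361 and 0.00278, edgeR).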

How the data were processed

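Whole zebrafish thymi were analysed by bulk RNA-seq, with 3 libraries per genotype. The authors trimmed reads with Trim Galore 0.4.3.1, aligned them with HISAT2 2.1.0, counted them with featureCounts 1.6.1.0 (build GRCz11 per the submitters' processing notes) and deposited raw counts per Ensembl gene. How reads were assigned by strand, the handling of multiple alignments and the annotation release are not given in the sources used here, nor is it settled which library kit was used, since the methods and the labels name different ones.

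Genes were kept where 3 or more libraries exceeded 5 counts, normalized by TMM and tested in edgeR 4.0.16 by quasi-likelihood (robust, two-sided) in R 4.3.3, with Benjamini-Hochberg adjustment over all 23805 genes and a threshold of 0.05. Standard errors were derived from the log2 fold change and its F statistic. The floor of 3 counts equals 0.0623 to 0.0874 CPM and covers counting error only. Identifiers were named from a table that gave symbols for 29201 of 32520, some of them human. Symbols were matched ignoring case or, failing that, without a final a or b; 176 of 194 list entries matched. Neighbours come from a RefSeq table of another assembly (GRCz12tu), so no coordinates are given.

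Members and lists were chosen with earlier results of these data known. Named genes were the members, *foxn1*, the neighbours, the 5 genes most like *rag1* and, for each list, the most abundant gene and those called with the largest rise and fall (not described for the lists that follow); other genes were named after their values were seen. Values of some list genes are not reported here. Lists for muscle, erythrocytes, myeloid cells and thymic epithelium served as checks of composition. In this order, 0 of 11, 1 of 7, 3 of 9 and 4 of 11 genes fell, and 11, 6, 3 and 6 rose. Over all genes tested, 35.9% were called lower and 36.2% higher. The number of thymic epithelium genes called lower was 2 in place of 4 when any 1 wild-type library was left out and with at least 10 counts in every library. In these settings *psmb11a* and *psmb11b*, with no more than 1 count in any mutant, failed the filter and were not tested. Alternatives were DESeq2 1.42.0, voom and treat (limma 3.58.1), DESeq2 size factors, a minimum of 10 counts in all libraries, no filter, scaling by library size alone, a replicate block, and leaving out each library. The tests were also run on simulated counts, whose outcome is not reported here and is not used as support.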

Additional observations from a re-analysis of the deposited data

How the results depend on the processing

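The number of members called lower was 10, and 9 without wild-type replicate 1 or 3 and without mutant replicate 1 or 2, with voom and treat, with no filter, with the replicate block and, where *dntt* was left out by its low counts, with at least 10 counts in every library. Members other than *nhej1* kept their direction and call wherever tested; *rag1* ranged from -4.82 (library size alone) to -3.93 (without mutant replicate 3). Library size alone moved the median of all genes by -0.40 and the called genes to 10800 lower and 6732 higher (38.4% higher, against 50.2%); relative to the median, *rag1* was at -4.42 under TMM and -4.43 there. The direction of *man2a2* turned with library size alone (-0.029), by the shift of all genes. The change in the ratio of *rag2* to *rag1* ranged from -0.20 to 0.049, and that of *xrcc4* to *lig4* from -0.16 to 0.12, when each library was left out. Of 680 values for 53 named or listed genes, 31 lost their call, 1 gained one and 1 turned. The replicate block called 16308 genes in place of 17165. The sample titles gave same-numbered libraries nothing in common but the number. Their deviations correlated at 0.12, -0.05 and -0.01, and not every library correlated best with its own number. Whether same-numbered pools were handled together cannot be told from these values. With 3 libraries per genotype, single ratios could not reach p below 0.1, and counts of *dntt* in mutants limit its fold.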
